A study of Mus musculus with 13 samples.

Results

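Red blood cell transcripts in mouse gluteal white adipose tissue (WAT, the subcutaneous fat depot of the rump) were represented by 5 genes of the 34419 in the count table. The genes were taken by name as transcripts that mark red blood cells, and not by how they behaved: the adult alpha globins Hba-a1 and Hba-a2, the adult beta globins Hbb-bs and Hbb-bt, and Alas2. All 5 were found in the table and all 5 passed the filter on low counts.

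Hemoglobin carries oxygen in the blood and is built from alpha and beta globin chains, each holding a heme group. The adult globin genes lie in clusters, in which embryonic globin genes are used early in life and adult genes later. Alas2 is the erythroid form of 5-aminolevulinate synthase, which starts heme synthesis in developing red blood cells, while Alas1 serves other tissues. Mature mammalian red blood cells have lost their nucleus and make no new RNA, so their transcripts are left over from earlier stages and are richest in reticulocytes, the youngest cells in the circulation. Globin transcripts in a whole-tissue library are commonly read as a sign of blood in the dissected tissue.

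The mice were male C57BL/6J, born and kept up to an age of 13 weeks at 22°C, a standard room temperature that is cool for a mouse, or at 29°C, close to thermoneutrality. Mice of both groups were housed singly and had the hair of the posterior body removed after weaning, so a haired comparison group was not analysed here. RNA of whole gluteal WAT was sequenced from 7 libraries at 22°C (replicates 1 to 7) and 6 libraries at 29°C (replicates 1 to 6), with no transgene or drug in either group. Whether blood was flushed from the vessels before dissection, and whether globin RNA was depleted from the libraries, is not given in the sources used here. In bulk tissue, more red blood cells and more RNA per red blood cell cannot be told apart.

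The libraries held 22356637 to 25245785 counts. Libraries 1 to 5 at 22°C formed a cluster of lower totals and all other libraries, including every library at 29°C, a cluster of higher totals, so that part of the temperature difference cannot be told apart from this split. Adipocyte markers summed to 25169 to 39297 CPM (counts per 1000000 counts of the library, whose size edgeR adjusted) in every library, so the markers of the labeled tissue were present. Skeletal muscle markers summed to 116 to 92279 CPM and the highest muscle levels were in libraries at 22°C.

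The alpha globin genes are near copies of each other, and so are the beta globin genes, which bears on how far the members of a pair can be measured apart. In the GENCODE reference transcripts, the coding sequences of Hba-a1 and Hba-a2 are both 429 bases long and differ at 1 base, C381T, counted from 1 at the first base of the start codon with the Hba-a1 base given first. The coding sequences of Hbb-bs and Hbb-bt are both 444 bases long and also differ at 1 base, C417T, with the Hbb-bs base first. The 60-base coding stretches around these sites are shown because they hold the only coding base by which a read can be assigned, with that base in capitals.
Hba-a1: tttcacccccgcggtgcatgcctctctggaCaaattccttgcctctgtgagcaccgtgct
Hba-a2: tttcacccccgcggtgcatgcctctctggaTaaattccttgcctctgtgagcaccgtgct
Hbb-bs: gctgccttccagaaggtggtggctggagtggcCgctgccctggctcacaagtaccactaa
Hbb-bt: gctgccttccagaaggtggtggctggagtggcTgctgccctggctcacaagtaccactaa

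Of all 50-base windows in the coding sequence of Hba-a1, 87.1% were also present in Hba-a2, and 92.9% of those of Hbb-bs were present in Hbb-bt. Over whole transcripts, which include the more divergent ends, 67.5% of the windows of Hba-a1 were found in Hba-a2 and 86.9% the other way. For the beta globins the shares were 65.8% of Hbb-bs and 58.3% of Hbb-bt. The split of counts within each pair is therefore uncertain. Alas2 has no such partner among the members, but in the RefSeq annotation it overlaps Apex2, a DNA repair nuclease, and reads from the shared part could have been counted for either gene.

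The 5 genes lie at 3 places in the genome. In RefSeq, Hba-a1 and Hba-a2 are on chromosome 11, with the theta globin gene Hbq1b between them, Hbb-bs and Hbb-bt are neighbors on chromosome 7, and Alas2 is on the X chromosome. The 120 bases before each RefSeq transcript start are shown 5′ to 3′ as a description of the genes. They are from build GRCm38.p6, which differs from the GRCm39 build named for the count table. Whether they had a part in how the transcripts varied across mice was not tested. Capitals mark 4 motifs: a TATA box, the CCAAT box, the CACCC box and a GATA motif. The TATA box was searched only on the strand shown, as TATAAA. The longer form TATATAA was taken as well, and so was the form that ends in AAG instead, ATATAAG. The CCAAT box was searched on both strands, and on the other strand its letters read ATTGG. The same was done for the CACCC box, whose letters on the other strand read GGGTG. The GATA motif was searched on both strands as these letters with A or T before them and A or G after. Overlapping matches were all marked.
Hba-a1, chr11:32283552-32283671, plus strand: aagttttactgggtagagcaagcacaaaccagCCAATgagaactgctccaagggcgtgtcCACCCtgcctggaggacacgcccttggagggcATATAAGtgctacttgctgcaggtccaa
Hba-a2, chr11:32296372-32296491, plus strand: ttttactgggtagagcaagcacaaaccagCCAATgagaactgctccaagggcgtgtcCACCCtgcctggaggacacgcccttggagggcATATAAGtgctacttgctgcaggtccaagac
Hbb-bs, chr7:103827929-103828048, minus strand: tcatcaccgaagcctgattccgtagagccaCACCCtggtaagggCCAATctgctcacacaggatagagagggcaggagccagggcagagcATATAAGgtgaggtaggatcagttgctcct
Hbb-bt, chr7:103813924-103814043, minus strand: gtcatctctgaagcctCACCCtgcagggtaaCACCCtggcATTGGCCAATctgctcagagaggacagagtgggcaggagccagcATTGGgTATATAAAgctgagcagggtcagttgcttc
Alas2, chrX:150547297-150547416, plus strand: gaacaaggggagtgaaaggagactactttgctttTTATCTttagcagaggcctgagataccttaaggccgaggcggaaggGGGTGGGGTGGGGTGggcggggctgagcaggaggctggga

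All 4 globin promoters held a TATA box, a CCAAT box and a CACCC box within these 120 bases. In Hba-a1, Hba-a2 and Hbb-bs the only TATA match was the form ATATAAG. The Hba-a1 and Hba-a2 windows are the same sequence apart from a small shift, so they are not separate cases. Among 32851 promoters in the same table and window, 5.34% held the TATA letters, 21.3% CCAAT, 31.7% CACCC and 12.8% a GATA motif. The TATA box began 28 to 31 bases before the start in the globins, where 2 of the forms overlapped in Hbb-bt. The Alas2 window held neither a TATA nor a CCAAT match, but it held a run of 3 CACCC matches on the opposite strand and 1 GATA match, also on the opposite strand, beginning at position -86. These matches are letters in a window and were not measured as binding sites.

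All 5 transcripts were detected in every library, and 29°C replicate 2 stood far above all other libraries for each of them. Leaving that library aside, the 22°C and 29°C libraries covered about the same range. The plot of CPM in each mouse shows this for the 5 genes on a common log axis.

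**Figure D1:**
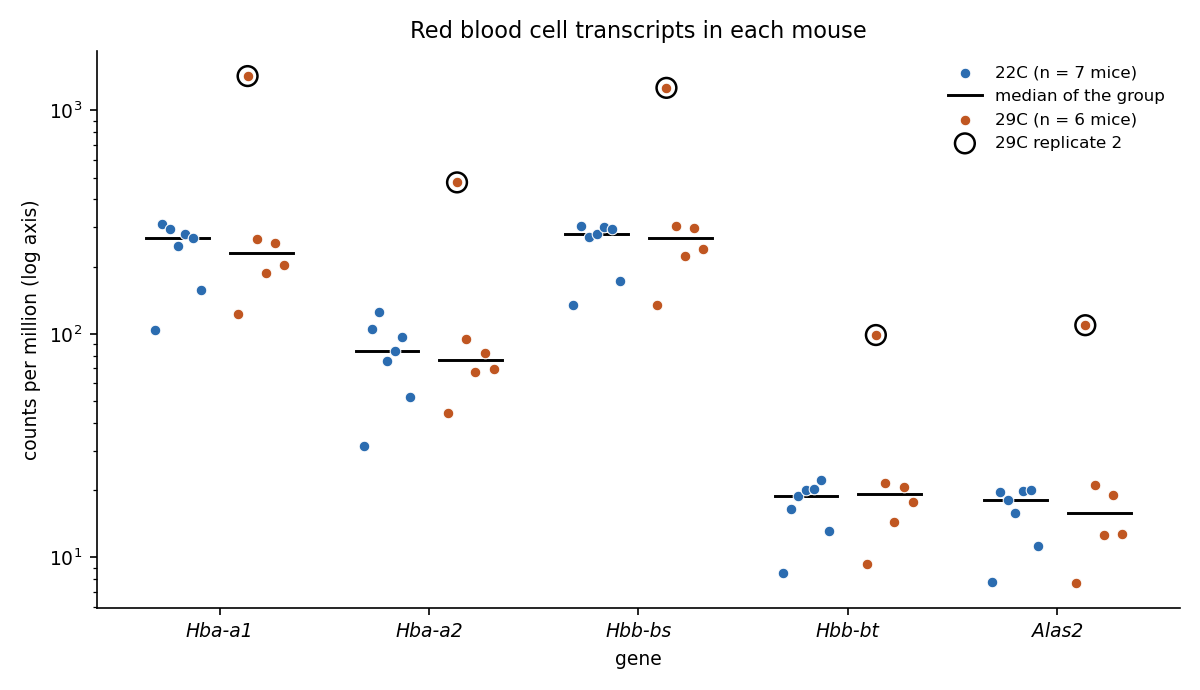
Level of each red blood cell transcript in every library, in CPM on a log axis, for 7 libraries at 22°C and 6 at 29°C; points are libraries and bars are group medians. The circled library, 29°C replicate 2, reached 1424 CPM of Hba-a1 and 109 CPM of Alas2, while the other points of both groups overlap.

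Hba-a1, which encodes an adult alpha globin chain, had a lowest, median and highest level of 104, 269 and 311 CPM at 22°C. At 29°C the lowest, median and highest were 122, 229.9 and 1424 CPM. The highest value at 29°C, from replicate 2, was 4.58 times the next highest library of either group, and the groups overlapped. Hba-a2, the second alpha gene, ran from 31.4 through a median of 84.1 to 126 CPM at 22°C, and from 44.4 through 76.0 to 476 CPM at 29°C. Again replicate 2 alone was above the 22°C range, at 3.78 times the next highest library.

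Hbb-bs, an adult beta globin, had a lowest, median and highest level of 135, 281 and 304 CPM in the cooler mice, while those of the warmer mice were 135, 269 and 1261 CPM. The medians and the lowest values of the groups were thus close together, and 29°C replicate 2 was 4.14 times the next highest library. Hbb-bt, the beta globin encoded beside it, was less abundant, at 8.49, 18.9 and 22.1 CPM at 22°C and 9.33, 19.2 and 98.8 CPM at 29°C. Alas2, the erythroid enzyme of heme synthesis, ranged from 7.75 through 18.0 to 19.9 CPM at 22°C and from 7.72 through 15.8 to 109 CPM at 29°C. For Hbb-bt and Alas2, 29°C replicate 2 was 4.47 and 5.19 times the next highest library.

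In raw counts, 29°C replicate 2 held 36901 reads of Hba-a1, 12339 of Hba-a2, 32683 of Hbb-bs, 2560 of Hbb-bt and 2833 of Alas2. The lowest counts of all 5 were in 22°C replicate 1, with 1968 of Hba-a1, 595 of Hba-a2, 2562 of Hbb-bs, 161 of Hbb-bt and 147 of Alas2. After scaling, the lowest CPM of Alas2 was in 29°C replicate 1 and those of the other 4 in 22°C replicate 1. No library came near the level of 0.113 to 0.158 CPM that a count of 3 corresponds to. Ranked by CPM among all genes, Hba-a1 stood at 55 and Hbb-bs at 66 in 29°C replicate 2, against 1850 and 1339 in 22°C replicate 1.

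The 4 globins together made up a small share of each library. At 22°C the share ran from 0.0236% in replicate 1 (95% Wilson interval 0.0230 to 0.0243%) through a median of 0.0700% to 0.0763%, and at 29°C from 0.0321% through 0.0595% to 0.340% in replicate 2 (0.338 to 0.343%). These intervals cover counting error only and are far narrower than the spread between libraries. Without replicate 2 the highest share at 29°C was 0.0704%, inside the 22°C range. Among the 12 other libraries the highest level exceeded the lowest by 2.999-fold for Hba-a1, 4.01-fold for Hba-a2, 2.25-fold for Hbb-bs, 2.61-fold for Hbb-bt and 2.73-fold for Alas2, with 22°C replicate 1 and 29°C replicate 1 at the low end.

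To compare genes with each other, CPM were divided by the length of the longest protein-coding transcript in kilobases. On this scale the median levels over the 13 libraries were 448 CPM per kilobase for Hbb-bs, 366 for Hba-a1, 148 for Hba-a2, 26.9 for Hbb-bt and 8.83 for Alas2. The order Hba-a1 above Hba-a2 above Hbb-bt above Alas2 held in 13 of 13 libraries. Hbb-bs was above Hba-a1 in 12 of 13, by ratios of 0.986 to 1.45, so these neighbors were close, and the exception was 29°C replicate 2. One gene of each pair therefore took most of the counts, Hba-a1 among the alpha globins and Hbb-bs among the beta globins.

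The study's comparison asks what housing at 22°C rather than 29°C changes in the fat. For the red blood cell transcripts none of the 5 passed the test (edgeR quasi-likelihood test, Benjamini-Hochberg adjusted over 17779 genes, P-adj below 0.1), where 1.94% of all genes tested did. None of the 5 had groups that did not overlap, against 1.24% of all genes tested. All 5 had lower fitted levels at 22°C over the 13 libraries, and all 5 had higher ones at 22°C once 29°C replicate 2 was left out, so the direction rested on that library.

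Hba-a1 had a mean of 238 ± 77.4 CPM (SD, n = 7) in the cooler mice, and its mean in the warmer mice was 410.2 ± 499 CPM (SD, n = 6). The edgeR log2 fold change of 22°C over 29°C was -0.79 (SE 0.52, 95% interval -1.90 to 0.32, P-adj = 0.438). Without 29°C replicate 2 the mean at 29°C was 207 ± 58.0 CPM (SD, n = 5) and the log2 fold change became 0.20 (SE 0.27, edgeR P-adj = 0.760). The SD at 29°C thus exceeded the mean with all mice and not without that library. Hba-a2 averaged 81.6 ± 32.1 CPM at 22°C against 139 ± 166 CPM at 29°C. Its log2 fold change came to -0.77 (SE 0.52, edgeR P-adj = 0.452), or 0.18 (SE 0.30) without the library.

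Hbb-bs averaged 251 ± 68.3 CPM at 22°C against 410.2 ± 421 CPM at 29°C. Its fold change was -0.71 on the log2 scale (SE 0.44, 95% interval -1.66 to 0.24, edgeR P-adj = 0.416). Without 29°C replicate 2 its mean at 29°C was 240.0 ± 68.3 CPM, and the log2 fold change was 0.07 with a 95% interval of -0.45 to 0.58. That interval leaves room for a difference in either direction. Hbb-bt averaged 17.0 ± 4.79 and 30.4 ± 33.8 CPM, with a log2 fold change of -0.83 (SE 0.47, edgeR P-adj = 0.367), or 0.03 (SE 0.25) without the library. Alas2 averaged 16.0 ± 4.77 and 30.4 ± 39.0 CPM, with a log2 fold change of -0.93 (SE 0.54, edgeR P-adj = 0.381), or 0.13 (SE 0.28) without it.

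**Figure D2:**
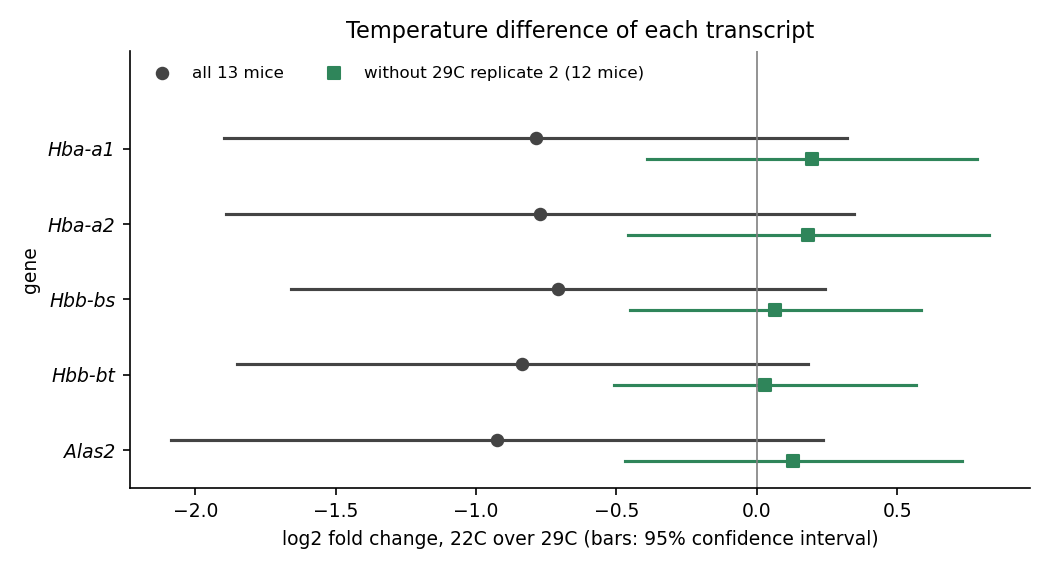
Fitted log2 fold change of each transcript, 22°C over 29°C, with its 95% confidence interval, for all 13 libraries (circles) and without 29°C replicate 2 (squares). Every interval crosses 0, the estimates with all libraries lie between -0.93 and -0.71, and those without the one library lie between 0.03 and 0.20.

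Within the 8 libraries of higher totals (2 at 22°C and 6 at 29°C), the log2 fold changes were -0.80 to -0.98, with edgeR P-adj of 0.724 to 0.752. These libraries still included 29°C replicate 2, on which the direction rested, and at 22°C only replicates 6 and 7. The 5 libraries of lower totals were all at 22°C, so no difference could be taken there. With the muscle marker score as a covariate the log2 fold changes were -0.09 to -0.27. The part of muscle and of the split of totals in these values was otherwise not tested.

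Although their levels differed several-fold between mice, the transcripts kept close to fixed proportions within a mouse. Over the 13 libraries Pearson's r between log2 CPM of 2 members was 0.959 to 0.993 for the 10 pairs, and Spearman's rho was 0.731 to 0.978. The permutation p was at most 4e-05 for r, with 1e-05 the smallest that 100000 permutations can give, and at most 0.00619 for rho. Adjusted over a family of 17 relations, the p-values were 2.83e-05 to 6.8e-05 for r and 0.000113 to 0.00957 for rho.

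Leaving out the 2 mice farthest from the median, 22°C replicate 1 and 29°C replicate 2, r was 0.784 to 0.965. Within the 22°C libraries r was 0.871 to 0.984, within the 29°C libraries 0.994 to 0.999, and within the libraries of higher totals 0.994 to 0.998. The relation among the members thus held within each group and did not rest on the extreme mice. The alpha genes share most of their sequence, as do the beta genes, so genes of a pair are not independent measures. Hbb-bs and Alas2, which are not copies of each other, had r = 0.993 (permutation p = 1e-05).

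Ratios of counts within a library put the same point in another form. Hba-a2 was 0.302 to 0.427 of Hba-a1 in every library, with geometric means of 0.336 at 22°C and 0.346 at 29°C. The difference in mean log2 ratio, 22°C minus 29°C, was -0.04, and it was smaller than the SD of the ratios at 22°C, 0.18 (exact permutation of the temperature labels in all 1716 ways, two-sided p = 0.601). Hbb-bt was 0.0539 to 0.0783 of Hbb-bs, with geometric means of 0.0677 and 0.0709, a difference of -0.07 (exact permutation p = 0.452). In 29°C replicate 2 Hba-a2 was 0.334 of Hba-a1, near the middle of the range, and Hbb-bt was 0.0783 of Hbb-bs, the top of it.

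Alpha to beta globin was likewise steady. Hba-a1 was 0.768 to 1.13 of Hbb-bs, with geometric means of 0.926 at 22°C and 0.906 at 29°C, a difference of 0.03 on the log2 scale (exact permutation p = 0.721). The 29°C libraries other than replicate 2 lay at or below 0.906, and replicate 2 at 1.13. Alas2 was 0.0529 to 0.0867 of Hbb-bs, with geometric means of 0.0632 and 0.0636 and a difference of -0.01 (exact permutation p = 0.938). Its highest value was again in 29°C replicate 2, where Alas2 exceeded the other libraries by somewhat more than Hbb-bs did. None of the 4 ratios differed between temperatures beyond the spread of the libraries, with adjusted p = 0.938 for each by the exact permutation test. From the lowest to the highest library the ratios spanned 1.42-, 1.45-, 1.47- and 1.64-fold in the order given.

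**Figure D3:**
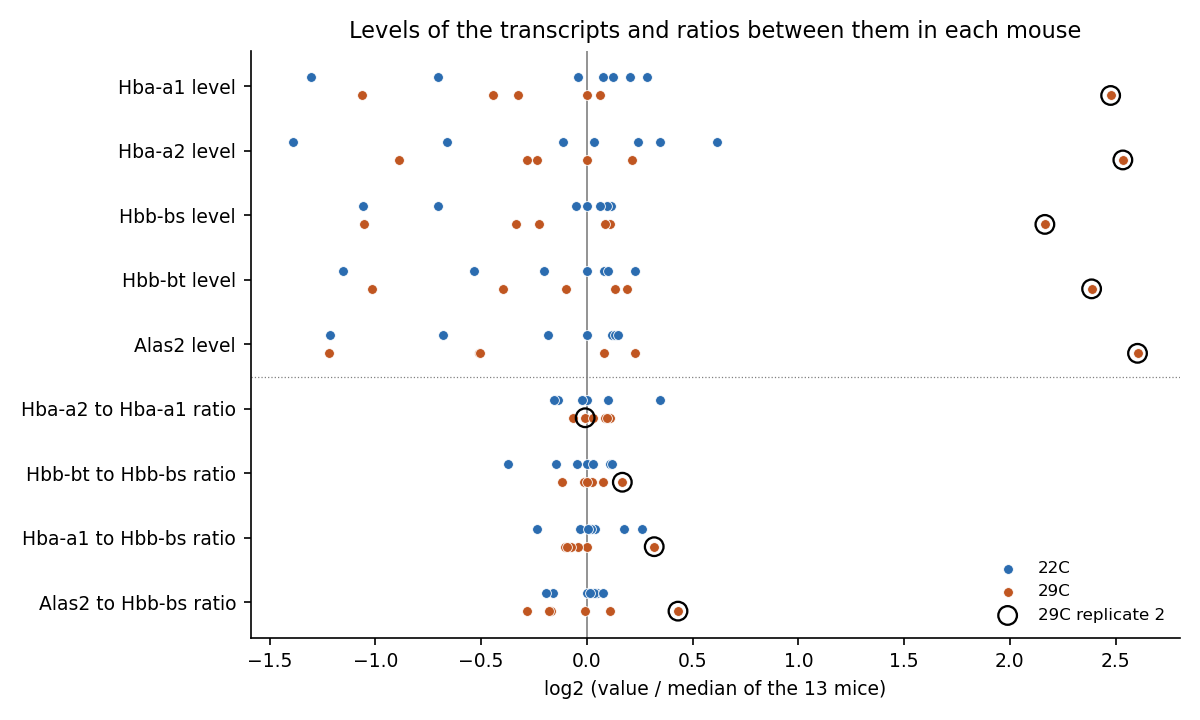
Levels of the 5 transcripts in CPM (upper rows) and the 4 ratios of counts (lower rows) in each of the 13 libraries, each as log2 of the value over its own median. The levels spread widely, with 29°C replicate 2 (circled) beyond 2 on this axis for all 5, while the ratios of all libraries stay within 0.5 of their medians.

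Other hemoglobin genes were nearly silent. The embryonic alpha-like Hba-x had at most 10 counts in a library and the embryonic beta-like Hbb-bh1 had 1 count in all 13. The theta globins Hbq1a and Hbq1b had at most 5 and 9 counts. For Hba-x, Hbq1a and Hbq1b the highest count was in 29°C replicate 2, the library with the most adult globin. The neuronal globin Ngb had 54 counts in all and 2 in 29°C replicate 2.

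Globins of other tissues did not share the pattern. Cytoglobin (Cygb), a globin of fibroblast-like cells, was at 103 CPM in 29°C replicate 2 and at 92.6 to 153 CPM in the other 12 libraries. Myoglobin (Mb), the oxygen store of muscle, was at 39.9 CPM there and at 23.6 to 1231 CPM in the others. The median of the log2 fold changes of these 2 genes was 1.22, beside 0.01 over all genes tested, and neither was called.

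Genes of the red blood cell membrane and of late maturation were listed from general knowledge, and 25 of 26 were found and 14 tested. None was called; at 22°C 9 had higher fitted levels and 5 had lower ones, and the median of the log2 fold changes was 0.13. Slc4a1, the band 3 anion exchanger of the red cell membrane, was at 5.71 CPM in 29°C replicate 2 and at 0.576 to 3.05 CPM in the other libraries. Bpgm, which makes the red cell metabolite 2,3-bisphosphoglycerate, was at 40.2 CPM against 12.04 to 35.2 CPM. Both genes were thus highest in the library with the most globin, by smaller margins than the globins.

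Other genes of that list did not follow, and some of these are shared with tissues beyond blood. Bnip3l, a mitophagy receptor used in red cell maturation and elsewhere, was at 144 CPM in 29°C replicate 2 and 127 to 148 CPM in the others. Sptb and Ank1, a spectrin and an ankyrin found in both red cells and muscle, were at 6.06 and 1.04 CPM there and reached 141 and 187 CPM in other libraries. Car1, listed as a red cell marker, was at 2.05 CPM there and at 1.13 to 3.85 CPM in the others. Among listed genes with few counts, Epb42 had 6 there and at most 10 elsewhere. Ermap had 4 and 16, Rhd 2 and 9, and Hemgn 0 and 8. Trim10, with 19 and 7 counts, and Kel, with 7 and 5, were highest in 29°C replicate 2. Of the 15 genes with at least 100 counts in all, 29°C replicate 2 was the highest library for 5, or 33.3%, against 6.56% of all genes tested.

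Of the listed erythroid regulators, Gata1, Klf1 and Gfi1b were near the detection limit and were not tested. Gata1, the master regulator of red cell genes, had at most 8 counts in a library and 6 in 29°C replicate 2. Klf1, which binds CACCC boxes of the beta globin promoter, had at most 10 counts and 9 in that library. Gfi1b had at most 14 counts in a library and 3 in 29°C replicate 2. Nfe2, a factor of red cell and platelet precursors, had 43 counts there and at most 17 elsewhere. Tal1, Lmo2, Zfpm1, Epor and Kit, which blood precursors share with endothelium, mast cells or other cells, were at 5.40, 21.5, 11.3, 6.71 and 9.42 CPM in 29°C replicate 2. Of these only Epor, the erythropoietin receptor, exceeded its range elsewhere, which was 2.96 to 5.96 CPM. Of the 9 listed regulators 6 were tested and 0 were called, with 2 fitted higher and 4 lower at 22°C.

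Heme synthesis and iron handling showed no such excess outside Alas2. All 18 listed genes were tested, 0 were called, 11 were fitted higher and 7 lower at 22°C, and the log2 fold changes had a median of 0.05. Alas1, the form of the first enzyme used outside red cells, was at 217 CPM in 29°C replicate 2 and at 181 to 542 CPM in the others. The globin-rich library was therefore within the range of Alas1 while its Alas2 level was 5.19 times the next highest. Of the 12 listed genes for clearing heme and hemoglobin 11 were tested and 0 were called, the median of their log2 fold changes being -0.02. The heme oxygenase Hmox1 was at 41.1 CPM in that library and 28.4 to 66.6 CPM in the others, and the hemoglobin scavenger receptor Cd163 at 80.4 and 45.6 to 108 CPM.

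Markers of other blood cells were read beside the globins. The 12 platelet markers summed to 99.8 CPM in 29°C replicate 2 and to 36.3 to 65.6 CPM in the other 12 libraries. Of the 11 with at least 100 counts in all, 7 (63.6%) were highest in that library. Ppbp, a platelet chemokine, was at 15.5 CPM there and at 0.345 to 2.07 CPM in the others. Gp9, part of the platelet receptor for von Willebrand factor, had 108 counts against at most 11, and Tubb1, the tubulin of the platelet rim, 122 against at most 17. Pf4, the most abundant marker of the list, which macrophages also express, was within the range of the others at 30.02 CPM. None of the 7 platelet markers tested was called between temperatures.

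The summed neutrophil, lymphocyte and macrophage markers were within the range of the other libraries. Neutrophil markers summed to 46.0 CPM in 29°C replicate 2 and to 25.1 to 69.7 CPM in the others. Of the 8 neutrophil markers with at least 100 counts, 1 (12.5%) was highest there, the colony-stimulating factor receptor Csf3r, at 6.95 CPM against 1.95 to 5.99 CPM. Il1r2, a decoy receptor for interleukin-1, was at 33.7 CPM against 15.6 to 60.5 CPM and made up most of the neutrophil sum. Lymphocyte markers summed to 191 CPM (81.8 to 750.4 CPM elsewhere) and macrophage markers to 962 CPM (686 to 1471 CPM). Ighm, at 147 CPM in 29°C replicate 2, made up most of the lymphocyte sum. The neutrophil and lymphocyte sums thus say little about the other markers of their lists. Igkc was the only one of the 12 lymphocyte markers with at least 100 counts that was highest in that library. Endothelial markers summed to 1006 CPM, near the top of the range of 708 to 1017 CPM elsewhere. Their score was the highest of the 13 libraries, and 4 of 12 (33.3%) were highest there, with a median difference of 0.28 in log2 CPM from the other libraries. The part of endothelium in the globin level was not tested. In the same library adipocyte markers summed to 32121 CPM, and muscle markers to 303 CPM, near the bottom of their range.

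**Figure D4:**
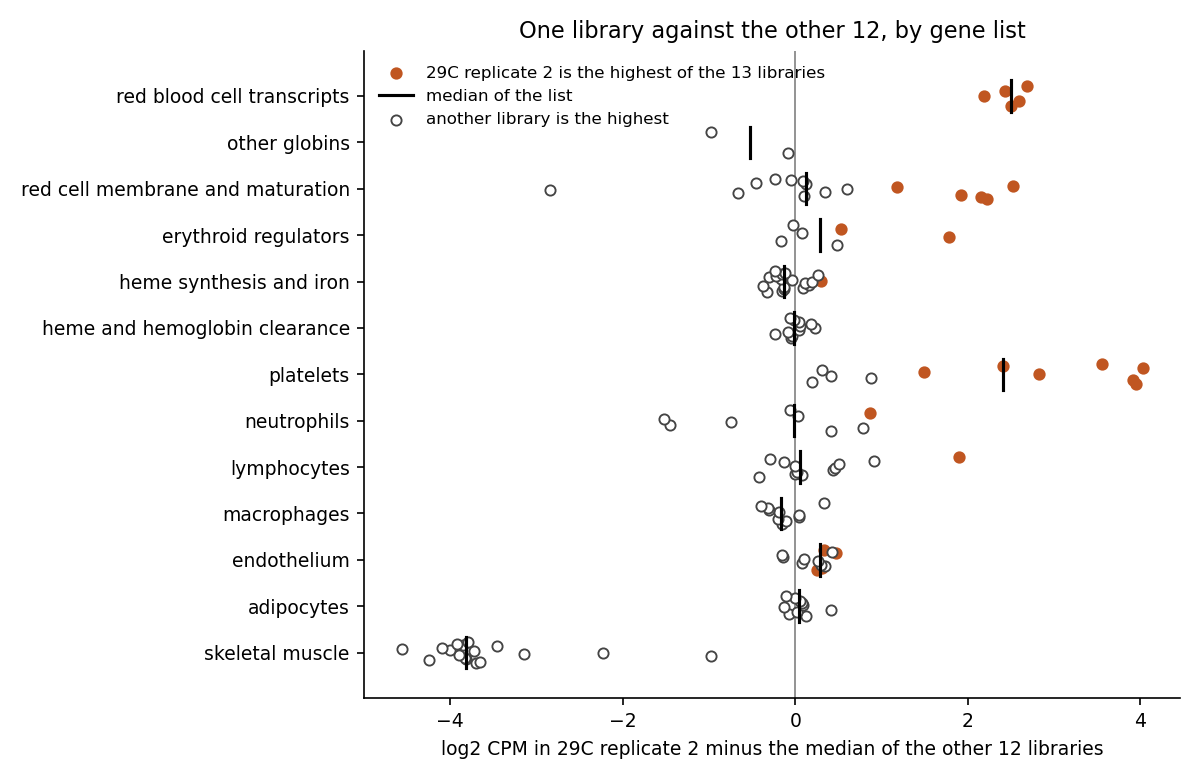
Difference between 29°C replicate 2 and the median of the other 12 libraries in log2 CPM, for each gene with at least 100 counts in all, by list; filled points are genes for which this library is the highest of the 13 and bars are list medians. The red blood cell transcripts have a median of 2.50, the platelet markers of 2.40 and the endothelial markers of 0.28, while neutrophil, lymphocyte, macrophage and adipocyte markers center near 0 and muscle markers at -3.81.

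Across the 13 libraries, the level of Hbb-bs was set against a score for each of 7 cell types, the mean log2 CPM of its tested markers. With the platelet score, r was 0.890 (permutation p = 0.00358, adjusted p = 0.00553) and rho 0.802 (permutation p = 0.00155, adjusted p = 0.00293). Without the 2 mice farthest from the median r was 0.429, so the relation rested on those mice. Within the 22°C libraries r was 0.594 and within the 29°C libraries 0.936, and neither passed with adjustment (exact permutation p adjusted to 0.21 and 0.0708). The other 6 scores did not pass an adjusted p of 0.05 over the 13 libraries.

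With the muscle score r was -0.50 (permutation p = 0.0866, adjusted p = 0.123) and rho -0.544, and with the adipocyte score r was 0.391 (permutation p = 0.190, adjusted p = 0.249) and rho 0.335. Within the 22°C libraries these were -0.815 and 0.832, which passed (exact permutation p adjusted to 0.0386 and 0.0450), and within the 29°C libraries -0.333 and -0.00. The 22°C libraries with the least globin were replicates 1 and 7. In 22°C replicate 1, the lowest, muscle markers summed to 68021 CPM. Whether muscle in the sample had a part in the low globin level was not tested. For neutrophils, lymphocytes, macrophages and endothelium r was 0.278, -0.10, 0.01 and 0.280.

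The genes whose log2 CPM was most like the mean of the 5 members over the 13 libraries are given as a description. A large part of the likeness came through 1 library, 29°C replicate 2. Among the 10 highest were Mkrn1, a ubiquitin ligase (r = 0.960), Apex2 (0.918), Ppbp (0.902), Gm14320 (0.878), Caprin2 (0.876), Tmem273 (0.868), the wax ester enzyme Awat2 (0.853), the ubiquitin-like conjugating enzyme Ube2l6 (0.845) and Kctd18 (0.824). Mkrn1 was at 61.9 CPM in 29°C replicate 2 and 32.6 to 43.8 CPM in the others, and Apex2, which overlaps Alas2, at 48.7 and 16.4 to 29.9 CPM. Without 29°C replicate 2 the r of the 10 genes was weaker and ran from 0.431 for Awat2 to 0.869 for Mkrn1. By that r, 0 of the 10 genes were among the 10 most like the members. Mkrn1 stood at rank 20 of 17774 genes, where the first gene had r = 0.897.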

How the data were processed

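The deposited table holds whole-number read counts per gene for each library, which the authors made by aligning reads with STAR 2.7.5a to GRCm39 (per the submitters' notes) and counting with featureCounts. Strand and multi-mapping settings and the annotation release are not given in the sources used here. The authors also deposited a table of regularized log2 values from DESeq2, used here only in an alternative.

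Symbols were matched to 34006 of 34419 gene identifiers, without version. Counts were scaled by TMM, filtered with filterByExpr and tested with edgeR 4.0.16 (quasi-likelihood, all 13 libraries, no covariates), a main tool other than the DESeq2 of the study. Genes were called at P-adj below 0.1, and the code was tested on simulated data. Of 17779 genes tested, 345 were called, 130 higher and 215 lower at 22°C. Log2 CPM used a prior count of 2, and ratios 0.5 counts added per gene. DESeq2 1.42.0, limma 3.58.1 and other scalings, filters, covariates and omissions were alternatives.

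No library pair agreed within counting noise (lowest chi-square per gene 16.9). That libraries are separate animals is taken from their labels. Replicate numbers shared by the groups were not taken as pairs, since the correlation of deviations was above 0.1 for 5 of 6 numbers but not for all (0.0508 to 0.513). For those 5 numbers it was 0.348 to 0.513, so libraries of the same number may share some structure. What they share was not tested, and a block on the replicate number is given as an alternative.

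Named genes were the 5 members and, from each other list, the 3 most abundant tested genes, any called gene, all other globins and erythroid regulators, and the 10 genes most like the members, some left out or not reported here. Slc4a1, Bpgm, Sptb, Ank1, Car1, Epb42, Ermap, Rhd, Hemgn, Trim10, Kel, Gp9, Tubb1, Hmox1 and Cd163 were chosen after their values were seen. The members and lists were chosen with earlier results of these data known.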

Additional observations from a re-analysis of the deposited data

Results flagged for a closer look

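In each group and for each transcript, ratio and summed list, the highest or lowest library was compared with its nearest neighbor by Dixon's criterion. For a single set chance gives about 1 in 20. The sets are not independent, since the 5 transcripts varied together and enter the ratios. Of 42 such sets 9 stood out, a count that cannot be set against that rate. Of the 9, 7 were the same library, 29°C replicate 2. All 5 red blood cell transcripts stood out there, with Hba-a1 at 1424 CPM, Hba-a2 at 476.2, Hbb-bs at 1261, Hbb-bt at 98.79 and Alas2 at 109.3 CPM. The nearest other 29°C libraries were at 267, 95.2, 304, 21.5 and 21.1 CPM. In the same library the ratio of Hba-a1 to Hbb-bs counts was 1.129, with the next at 0.906, and the platelet markers summed to 99.8 CPM, with the next at 60.1 CPM.

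The other flags were outside the red blood cell transcripts. The other globins summed to 1324 CPM in 22°C replicate 1, with the next at 511 CPM, a sum that was mostly myoglobin (Mb, highest value 1231 CPM). The genes of heme synthesis and iron summed to 1460 CPM in 22°C replicate 6, with the next at 1152 CPM. The cause of these values was not tested.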

How the results depend on the processing

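None of the 5 transcripts was called in any of 24 alternatives for each, where P-adj ran from 0.279 to 0.970 (DESeq2 gave no adjusted p for Hba-a1). Leaving out 1 library, the log2 fold change ran from -0.98 to 0.20 for Hba-a1, -0.96 to 0.18 for Hba-a2, -0.89 to 0.07 for Hbb-bs, -1.02 to 0.03 for Hbb-bt and -1.13 to 0.13 for Alas2, with every value above 0 from leaving out 29°C replicate 2 (0.196, 0.184, 0.0663, 0.0278 and 0.130 in that order). With the replicate number as a block, values were -0.19, -0.23, -0.23, -0.31 and -0.24 in that order and 263 genes were called over the whole table; 4 of 6 and 3 of 6 libraries correlated best with their own number.

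The 345 genes called became 1676 with DESeq2, 42 without a filter, 46 with the muscle score and 4 with the cluster of totals as a covariate, 126 with the Hbb-bs level as a covariate (120 of them among the 345), 8 in the higher-total libraries, 40 at P-adj below 0.05, and 32 to 652 leaving out 1 library (49 without 29°C replicate 2). Ratio differences changed sign in the higher-total libraries, to 0.0918 (Hbb-bt to Hbb-bs) and 0.0631 (Alas2 to Hbb-bs). Leaving out 1 library they ran from -0.0622 to 0.0806 (Alas2 to Hbb-bs) and -0.00676 to 0.0953 (Hba-a1 to Hbb-bs).

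Hbb-bs correlations changed as follows. Platelets gave 0.594 within 22°C, 0.936 within 29°C and 0.429 without the farthest mice. Macrophages gave 0.673 within 22°C, -0.0234 on the authors' log2 values, -0.449 within 29°C, -0.355 in higher-total libraries and -0.378 without the farthest mice. Lymphocytes gave 0.0259, endothelium -0.572, adipocytes 0.832 and muscle -0.815 within 22°C, and adipocytes -0.00418 within 29°C. The cause of these changes was not tested.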

Other observations

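After the values were seen, genes at more than 3 times their next highest library were listed. In 29°C replicate 2 there were 13, among them the 5 red blood cell transcripts, Ppbp, Awat2, Nrgn, Mpig6b, Clec1b, Ighj1 and 4833423E24Rik. Mpig6b and Clec1b encode receptors of platelets, and were at 4.17 and 2.66 CPM there against at most 1.13 and 0.805 CPM elsewhere. Nrgn, neurogranin, was at 25.1 CPM against at most 4.83 CPM, and 4833423E24Rik at 34.7 CPM against at most 3.64 CPM. Other libraries had 0 to 36 such genes.

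Of 73 tested genes listed for 7 cell types, 2 (2.74%) passed the test between temperatures, a share near the 1.94% of all genes tested. The T cell gene Cd3e was higher at 22°C (1.04 ± 0.553 CPM against 0.297 ± 0.166 CPM, edgeR log2 fold change 1.78, P-adj = 0.0817), and the adipocyte hormone Lep was lower (735 ± 151 against 1261 ± 227 CPM, log2 fold change -0.78, edgeR P-adj = 0.0564). Neither passed without 29°C replicate 2, at edgeR P-adj of 0.149 and 0.124, while their log2 fold changes were 1.91 and -0.79.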
